A study of Mus musculus with 6 samples.

Results

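The calmodulin, CaM kinase and calcineurin genes described here are the 9 loci of the deposited table of WT and *Fmr1* KO transcript levels whose symbol is *Calm2*, *Calm3*, *Camk2a*, *Camk2b*, *Camk2d*, *Camk2g*, *Camk4*, *Camkk2* or *Ppp3ca*, out of 47086 loci in all. Rows were taken by symbol, with no threshold on a measured value, although the symbols themselves were chosen with earlier results of these data known, and each of the 9 symbols has 1 locus. All 9 were among the 13195 loci with a mean of at least 1 FPKM (fragment counts scaled by transcript length and by the mapped fragments of the library) in either genotype, which were the loci tested. Total RNA came from primary mouse hippocampal cultures at 14 days in vitro, with 3 libraries from wild type (WT) and 3 from *Fmr1* knockout (KO) cultures, both on the C57BL/6 strain and neither given any compound. The study compared the genotypes to obtain a transcript signature of fragile X syndrome, the disorder caused by loss of the RNA-binding protein FMRP that *Fmr1* encodes. Its reporting summary speaks of several batches of culture and several litters for its data in general, and its methods describe the KO mice and their WT littermates in general as male. Those methods also describe primary hippocampal neurons as cultured from newborn mice. For biochemical analyses of primary neurons they count fewer litters than for behaviour. The sources used here do not say which batch or litter, or pups of which sex, stand behind each library. Where libraries of a genotype were not separate cultures, the p-values given here measure only a technical spread.

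Calmodulin is a small calcium sensor: once it has bound calcium, it wraps around target enzymes and switches them on. Among its targets in neurons are the calcium/calmodulin-dependent protein kinases (CaM kinases) and the phosphatase calcineurin. CaMKII, built from alpha, beta, gamma and delta subunits, is abundant at hippocampal synapses and is known for its part in long-term potentiation, while calcineurin opposes kinases there and is known for its part in long-term depression. Trifluoperazine, the compound that the study went on to test, is a classical calmodulin antagonist, so these genes include direct and indirect targets of that property.

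*Calm2* and *Calm3* encode the same protein. In the mouse (GRCm38), *Calm2* spans chr17:87433401-87446935 and *Calm3* spans chr7:16915379-16924032, as the deposited table gives them. Their coding sequences, taken from the GENCODE M21 annotation, have 450 bases each and translate to identical proteins of 149 residues. The first 120 coding bases are shown here, 5′ to 3′ on the coding strand, because they show what allows reads of these genes to be told apart, with capitals at positions where they have different bases.
Calm2: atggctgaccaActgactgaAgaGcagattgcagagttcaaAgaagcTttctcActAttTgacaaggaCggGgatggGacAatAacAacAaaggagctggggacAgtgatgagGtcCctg
Calm3: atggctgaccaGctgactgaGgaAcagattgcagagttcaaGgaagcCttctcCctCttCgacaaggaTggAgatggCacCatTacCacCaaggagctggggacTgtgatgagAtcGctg

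In this stretch the genes differed at 18 of 120 positions, and all 18 lay at the third base of a codon. Over the whole coding sequence they differed at 78 of 450 positions, 74 of them at the third base of a codon, and were 82.7% identical. No identical run exceeded 17 bases. A fragment spanning more than that of the coding sequence therefore differs between *Calm2* and *Calm3*, and they shared no 50-base stretch over their annotated transcripts either.

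Some stretches were shared with other annotated genes. Of the 50-base stretches of the transcript used, 12.7% of those of *Calm2* also occurred in 3 other annotated genes and 2.77% of those of *Calm3* in 1 other. Of these others, *Gm7308*, which shares stretches with *Calm2*, was listed at 11.8 to 15.01 FPKM over the 6 libraries, and *Gm5881*, which shares stretches with *Calm3*, at 7.91 to 16.5 FPKM. No source used here says how the authors assigned such reads, so a small part of the calmodulin values is uncertain. The genes of the CaMKII subunits encode related but different proteins, 84.3 to 88.3% identical between pairs, and *Camk2b*, *Camk2d*, *Camk2g*, *Camkk2* and *Ppp3ca* had no 50-base stretch in common with any other annotated gene.

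None of the 9 genes differed between the genotypes at an adjusted p below 0.05. The test was limma with a mean-variance trend on log2(FPKM + 0.1), with Benjamini-Hochberg adjustment over all 13195 tested loci. By the same test, 35 loci (0.265%) passed in the whole table, 12 of them higher and 23 lower in the libraries labelled KO. At an unadjusted p below 0.05, 1 of the 9 genes passed, *Camk2a*, against 14.8% of all tested loci. *Camk2a* was also the single gene of the 9 whose 3 libraries labelled KO all lay above the 3 WT libraries, which held for 10.8% of all tested loci. None of the 9 had all libraries labelled KO below the WT libraries, which held for 10.3% of all tested loci. Counts of 1 and 0 among 9 genes are about what these background shares give. The log2 change, always given as KO minus WT on the log2(FPKM + 0.1) scale, had a median of 0.01 over the 9 genes, with 6 above 0 and 3 below. Over all tested loci the median was 0.005, with 6816 above 0 and 6379 below. Regardless of sign, the median change was 0.04 over the 9 genes and 0.08 over all tested loci.

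**Figure D1:**
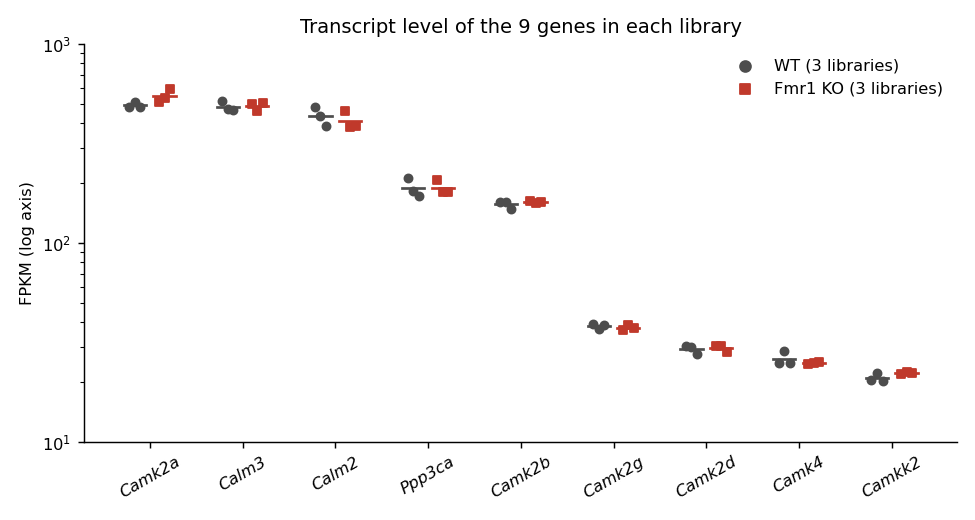
Transcript level (FPKM, log axis) of the 9 genes in each of the 6 libraries, ordered by mean level, with grey circles for the 3 WT libraries, red squares for the 3 *Fmr1* KO libraries and a line at each genotype's mean. The genotypes overlap for every gene except *Camk2a*, whose KO libraries sit at 513 to 592 FPKM and WT libraries at 480 to 508 FPKM.

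The checks on labels and libraries were as follows. *Fmr1* itself was listed at 19.0, 19.5 and 19.7 FPKM in WT replicates 1 to 3 and at 23.1, 21.8 and 18.5 FPKM in the replicates labelled KO, a log2 change of 0.12 ± 0.08 (SE) with an adjusted p of 0.536 by limma. The transcript was thus not lower in the libraries labelled KO. In hippocampal tissue of injected mice, the study detected FMRP by Western blot in WT but not in KO samples, and genotyping by PCR told them apart. The sources used here report no such check for the sequenced cultures. The sources used here do not state which part of *Fmr1* the allele alters, and a level over the whole gene does not show whether the protein is made, so these values check neither label, and every direction given here rests on the labels, with KO standing for the libraries so labelled. The absolute sequencing depth is unknown, and the most abundant transcript, the small RNA *Bc1*, took 73.7 to 80.6% of the summed FPKM of a library. Over the tested loci, log2 values of libraries correlated (Pearson's r across loci, which are not independent) at 0.970 to 0.978 within a genotype and at 0.962 to 0.977 between genotypes.

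Neurons were well represented, with 7 of 7 fixed neuronal markers tested and a summed level of 1350 to 1418 FPKM in WT libraries and 1406 to 1512 FPKM in those labelled KO. Of these markers, 4 had a log2 change above 0 and 3 below. The largest rise was that of *Map2*, with a mean of 302 FPKM in WT and 362 FPKM in KO. The largest fall was that of *Snap25*, with 264 and 236 FPKM. Markers of excitatory neurons, the cells in which *Camk2a* is best known, summed to 371 to 386 FPKM in WT and 358 to 381 FPKM in KO libraries. The cultures also held other cells, since astrocyte markers summed to 1336 to 1536 FPKM in WT and 1364 to 1511 FPKM in KO libraries. Microglial markers were sparse and lower in the libraries labelled KO, at 1.06 to 2.41 against 4.16 to 6.29 FPKM for the sum of 8, with *Aif1* and *Tmem119* listed at 0 throughout. Whether a listed 0 means that a transcript was absent was not tested, for these or for any gene below. All 5 proliferation markers had a log2 change above 0, with a median of 0.30, and 3 of them had an unadjusted p below 0.05. Markers of the oligodendrocyte lineage summed to 346 to 402 FPKM in WT and 396 to 439 FPKM in KO libraries. Those of fibroblasts and mural cells summed to 47.4 to 52.0 and 38.6 to 46.8 FPKM. Most of that sum was *Dcn*, with a mean of 42.0 FPKM in WT and 34.8 FPKM in KO. Of the 4 tested genes of that list, 1 had a log2 change above 0 and 3 below, while the untested *Col1a1* and *Col1a2* had higher means in KO. Those of endothelial cells summed to 2.24 to 2.43 and 1.47 to 2.07 FPKM, with *Cldn5* listed at 0. No marker passed at an adjusted p below 0.05 by limma, while 15 of the 46 tested had an unadjusted p below 0.05, against 14.8% of all tested loci. The part of these cells in the values of the 9 genes was not tested. In bulk RNA, fewer cells of a type and less RNA per cell cannot be told apart.

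The calcium sensor comes first among the 9 genes. *Calm3* was at 516, 469 and 467 FPKM in WT replicates 1 to 3 and at 500, 461 and 503 FPKM in the KO replicates. The highest and the lowest of these 6 values belong to different genotypes but the ranges overlap almost entirely, and the log2 change was 0.01 ± 0.06 (SE, 3 libraries per genotype, adjusted p = 0.948 by limma). *Calm2* was at 482, 434 and 388 FPKM in WT and at 461, 384 and 388 FPKM in KO. In both genotypes replicate 1 was the highest, and the log2 change of -0.08 ± 0.09 (SE) did not pass (adjusted p = 0.738 by limma). It was -0.0035 without WT replicate 1 and -0.17 without KO replicate 1. Its 95% interval, from -0.29 to 0.13, was the widest of the 9 genes.

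Since FPKM is scaled by transcript length, the levels of these genes can be set side by side. *Calm3* made up 51.7 to 56.5% of their summed FPKM and *Calm2* 43.5 to 48.3%. The summed level was 918 ± 72.8 FPKM in WT and 899 ± 58.2 FPKM in KO (SD, n = 3 each), so the genotype means lay closer together than the libraries of either genotype. The log2 ratio of *Calm2* to *Calm3*, which does not depend on how a library was scaled, was -0.10, -0.11 and -0.27 in WT and -0.12, -0.26 and -0.38 in KO. These ranges overlapped, with a difference of -0.09 (exact two-sided permutation test, p = 0.3, where 0.1 is the smallest p that 3 against 3 libraries allow).

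**Figure D2:**
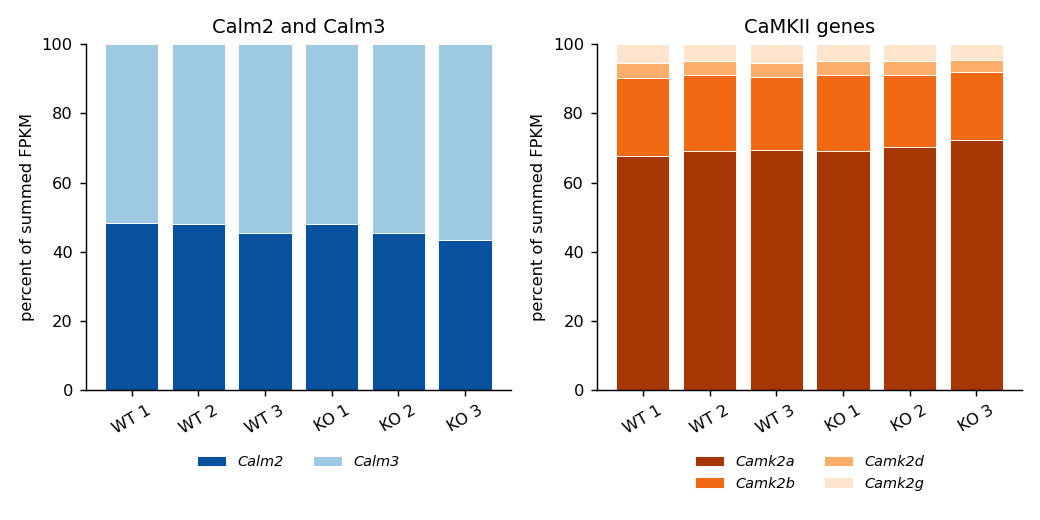
Share of each gene (percent of the summed FPKM) between *Calm2* and *Calm3*, on the left, and among the 4 CaMKII subunit genes, on the right, in each of the 6 libraries. *Calm3* is the larger share of its pair in every library, and *Camk2a* takes 67.6 to 72.3% of the CaMKII sum, with KO replicate 3 the highest.

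Of the CaMKII subunits, the alpha subunit gene *Camk2a* had the highest level of the 9 genes and the largest change. It was at 480, 508 and 484 FPKM in WT replicates 1 to 3 and at 513, 537 and 592 FPKM in the KO replicates. Every KO library lay above every WT library, with KO replicate 1 only just above WT replicate 2 and KO replicate 3 well above the rest. The log2 change was 0.16 ± 0.06 (SE), a 1.11-fold level (95% interval 1.01 to 1.22), with an unadjusted p of 0.0304 and an adjusted p of 0.286 by limma. Regardless of sign, 75.04% of all tested loci changed by no more than that, so a change of this size is not unusual in this table. Without KO replicate 3, the change was 0.10 with an adjusted p of 0.601 by limma. Its unadjusted p was also no longer below 0.05 without WT replicate 1, without WT replicate 3 or without KO replicate 2. When each library was scaled to the FPKM sum over all loci, the change was -0.03, but that scaling moved the median of all loci to -0.18. Relative to the median of all loci, *Camk2a* stood at 0.15 under that scaling and under each of the other library scalings tried.

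*Camk2b* encodes the beta subunit, which ties the kinase to actin filaments. It was at 161, 160 and 149 FPKM in WT and at 162, 158 and 161 FPKM in KO, a log2 change of 0.04 ± 0.05 (SE, adjusted p = 0.778 by limma). The KO values lay within or just beyond the upper end of the WT range. *Camk2g*, for the gamma subunit, was at 39.0, 36.9 and 38.5 FPKM in WT and at 36.4, 38.6 and 37.1 FPKM in KO (log2 change -0.03 ± 0.05 SE, adjusted p = 0.825 by limma). *Camk2d*, for the delta subunit, was at 30.3, 29.8 and 27.7 FPKM in WT and at 30.1, 30.3 and 28.4 FPKM in KO (log2 change 0.02 ± 0.06 SE, adjusted p = 0.935 by limma). For each of these 3 subunit genes the genotypes overlapped.

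The make-up of CaMKII transcripts was dominated by the alpha subunit in all 6 libraries. *Camk2a* took 67.6, 69.2 and 69.3% of the summed FPKM of the 4 genes in WT and 69.2, 70.3 and 72.3% in KO, a mean of 68.7 ± 0.969% against 70.6 ± 1.58% (SD, n = 3 each). The ranges overlapped, because KO replicate 1 lay below WT replicate 3 and close to WT replicate 2. The difference of 1.95 percentage points had p = 0.2 by an exact two-sided permutation test, and an adjusted p of 0.36 over the 6 ratios compared. *Camk2b* took 19.7 to 22.7%, *Camk2g* 4.53 to 5.51% and *Camk2d* 3.47 to 4.27%. On the log2 scale *Camk2a* exceeded *Camk2b* by 1.57, 1.67 and 1.71 in WT and by 1.66, 1.77 and 1.88 in KO, again with overlap (exact two-sided permutation test, p = 0.3, adjusted p = 0.36). The summed CaMKII level relative to *Calm2* plus *Calm3* differed by 0.15 on the log2 scale, with p = 0.3 and adjusted p = 0.36 by the same exact permutation test.

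CaMKIV and CaMKK2 form a kinase cascade: CaMKK2 phosphorylates CaMKIV, which acts in the nucleus on CREB. *Camk4*, for CaMKIV, was at 24.8, 28.5 and 25.0 FPKM in WT and at 24.6, 24.8 and 25.2 FPKM in KO. Apart from WT replicate 2, all libraries lay within a narrow band, and the log2 change was -0.07 ± 0.06 (SE, adjusted p = 0.677 by limma). Without WT replicate 2 the change was -0.00055. *Camkk2* was at 20.4, 22.1 and 20.3 FPKM in WT and at 21.8, 22.3 and 22.3 FPKM in KO, with a log2 change of 0.08 ± 0.05 (SE, adjusted p = 0.515 by limma). KO replicate 1 lay below WT replicate 2, so the genotypes overlapped. The deposited *Camkk2* locus, chr5:122707509-122779471, begins before the GENCODE M21 gene, whose bounds are chr5:122731170-122779409. It reaches over *P2rx4*, whose RefSeq (GRCm38.p6) bounds overlap those of *Camkk2* by 11360 bases. *P2rx4* has its own locus at 2.07 to 2.49 FPKM, and no source used here says how the authors divided reads between these 2 genes.

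The ratio of *Camk4* to *Camkk2* was the one of the 6 ratios in which the genotypes did not overlap. On the log2 scale it was 0.28, 0.37 and 0.30 in WT and 0.17, 0.15 and 0.18 in KO. Its mean was 0.32 ± 0.05 in WT and 0.17 ± 0.01 in KO (SD, n = 3 each), a difference of -0.15. The exact two-sided permutation test gave p = 0.1, the smallest value that this design allows, and an adjusted p of 0.36 over the 6 ratios. No ratio could have reached 0.05 in this design, so the test cannot decide whether the genotypes differ.

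Calcineurin has a catalytic and a regulatory subunit, and *Ppp3ca* encodes the main catalytic subunit of brain. It was at 211, 182 and 172 FPKM in WT and at 206, 180 and 179 FPKM in KO, and replicate 1 was again the highest in both genotypes. The log2 change was 0.00 ± 0.08 (SE, 95% interval -0.19 to 0.20, adjusted p = 0.987 by limma). The log2 ratio of *Ppp3ca* to *Camk2a*, a phosphatase against a kinase transcript, was -1.19, -1.48 and -1.49 in WT and -1.31, -1.58 and -1.72 in KO. It differed by -0.15, with overlap between genotypes (exact two-sided permutation test, p = 0.4, adjusted p = 0.4).

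**Figure D3:**
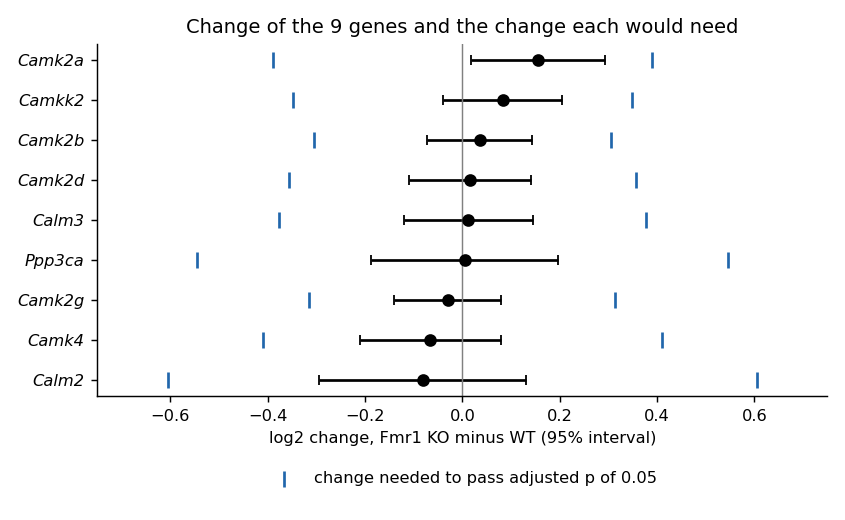
log2 change (KO minus WT, on the log2(FPKM + 0.1) scale) of each of the 9 genes as a point with its 95% interval from limma, and blue marks at the change each gene would have needed, at its own standard error, for an adjusted p of 0.05. All points lie inside their marks, and the interval of *Camk2a* is the only one that leaves out 0; under scaling to the FPKM sum of all loci *Camk2a*, *Camkk2*, *Camk2b*, *Camk2d*, *Calm3* and *Ppp3ca* turn to negative values.

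The precision differed between the genes. At its own standard error and at the threshold set by all tested loci, *Camk2b* would have passed with a log2 change of 0.30 and *Calm2* with 0.60, and the other 7 genes lay between these. Smaller changes would not have passed at these standard errors, which belong to the fit with genotype as its only term. The coefficient of variation within a genotype ran from 1.19% for *Camkk2* in KO to 10.9% for *Calm2* in WT. *Calm2* and *Ppp3ca* had the largest coefficients of variation in WT, and replicate 1 was the highest library for both in each genotype. Over the 9 genes, the highest WT library was replicate 1 for 6 genes and replicate 2 for 3 genes, while in KO each replicate was the highest for 3 genes.

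**Figure D4:**
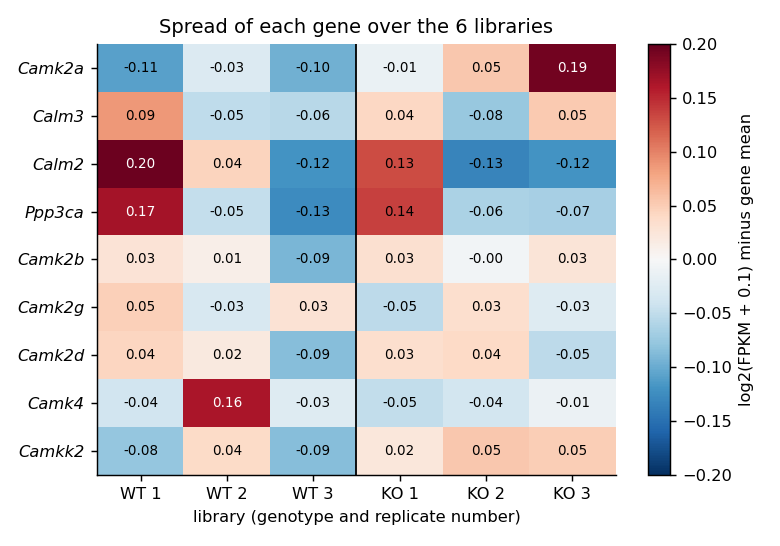
Each gene's log2(FPKM + 0.1) in the 6 libraries minus its mean over them, in log2 units, with the genotypes divided by a black line. WT replicate 1 and KO replicate 1 are both raised for *Calm2* (0.20 and 0.13) and *Ppp3ca* (0.17 and 0.14), and *Camk2a* reaches 0.19 in KO replicate 3.

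By mean level over the 6 libraries, *Camk2a* (519 FPKM) came first, followed by *Calm3* (486 FPKM), *Calm2* (423 FPKM), *Ppp3ca* (188 FPKM), *Camk2b* (158 FPKM), *Camk2g* (37.8 FPKM), *Camk2d* (29.4 FPKM), *Camk4* (25.5 FPKM) and *Camkk2* (21.5 FPKM). The first 3 lay at percentiles 99.3 to 99.5 of the tested loci, and *Camkk2* at percentile 73.1. Neighbours in this order had separate ranges over the 6 libraries except for 3 pairs. *Camk2a* and *Calm3* overlapped, and *Camk2a* was the higher in 5 of 6 libraries. *Calm3* and *Calm2* also overlapped over libraries, although *Calm3* was the higher within each of the 6. The same held for *Camk2d* over *Camk4*, whose ranges overlapped through WT replicate 2 alone.

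The loci whose profile over the 6 libraries was most like that of *Camk2a* were *Mtor*, *Shank1* and *Tln2*. Likeness was the root mean square distance between log2(FPKM + 0.1) values, each centred on its own mean, and these loci lay at 0.0213, 0.0219 and 0.0223 where the median tested locus lay at 0.141. They were picked as the closest of the tested loci, so short distances and a rise like that of *Camk2a* follow from the choice. Whether they are regulated together was not tested. *Mtor*, for a kinase of growth and translation control, was at 5.47, 5.83 and 5.52 FPKM in WT and at 6.03, 6.06 and 6.65 FPKM in KO. *Shank1*, for a scaffold of the postsynaptic density, was at 60.5, 64.1 and 62.3 FPKM in WT and at 63.3, 69.4 and 74.9 FPKM in KO. *Tln2*, for a talin that links integrins to actin, was at 17.5, 18.9 and 18.4 FPKM in WT and at 19.3, 20.1 and 21.6 FPKM in KO. Their adjusted p by limma was 0.296 to 0.377.

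Around the 9 genes, 77 other genes of the pathway stood in 9 lists, of which 66 were tested. None passed at an adjusted p below 0.05 by limma, while 8 were higher and 6 lower in the libraries labelled KO at an unadjusted p below 0.05, where 14.8% of all tested loci passed in either direction. All 3 KO libraries lay above all 3 WT libraries for 13 of the 66, and below for 6, against 10.8% and 10.3% of all tested loci. The log2 change was above 0 for 42 and below 0 for 24, with a median of 0.03. Over all tested loci it was above 0 for 6816 and below 0 for 6379.

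Among the other calmodulin-dependent kinases, 14 of 17 were tested and 12 had a log2 change above 0, as had 6816 of all 13195 tested loci. *Camkv*, a kinase-like calmodulin-binding protein of synapses, was the most abundant at 148, 137 and 130 FPKM in WT and 139, 142 and 145 FPKM in KO (log2 change 0.04). The extremes were *Eef2k*, whose product slows translation elongation, at 0.19, and *Mylk*, for myosin light chain kinase, at -0.37, with adjusted p of 0.465 and 0.435 by limma and overlapping libraries. The study's own list of changed genes does hold *Mylk*, as well as *Nos1* and *Crtc2*, which are described below. It also holds other genes of the lists used here, among them *Itpka*, *Adcy8* and *Atp2b4*, lower in KO, and *Itpkb*, higher in KO. The study placed these in calcium signaling, a pathway it reported as enriched. Here they had the same directions, with adjusted p of 0.170 to 0.325 by limma. That list came from Cuffdiff, so its test and threshold are unlike those used here. Without WT replicate 1 the change of *Eef2k* was 0.068. Of the genes for CaMKII inhibitors and CaM kinase phosphatases, *Camk2n1*, an endogenous CaMKII inhibitor, was at 113, 97.5 and 98.6 FPKM in WT and 101, 87.8 and 90.4 FPKM in KO (log2 change -0.15, adjusted p = 0.393 by limma). Replicate 1 was again the highest in both genotypes. *Ppm1f*, which dephosphorylates CaM kinases, had a change of 0.13 with an adjusted p of 0.447, and *Ppm1e* was listed at 0 in all libraries.

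The calcineurin subunits other than *Ppp3ca* showed small differences. *Ppp3r1*, for the calcium-binding regulatory subunit, was at 149, 143 and 135 FPKM in WT and at 139, 127 and 126 FPKM in KO (log2 change -0.12, adjusted p = 0.365 by limma). *Ppp3cb*, for a further catalytic subunit, was at 115, 104 and 97.1 FPKM in WT and 114, 104 and 100 FPKM in KO (log2 change 0.02, adjusted p = 0.942 by limma). Both overlapped between the genotypes. Of 7 tested regulators and anchors, 2 had an unadjusted p below 0.05 by limma on the higher side and 1 on the lower side. Of all tested loci, 14.8% passed in either direction.

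Those at the ends of that list had separate libraries. Of all tested loci, 10.8% had all KO libraries above the WT libraries and 10.3% had them below. *Cabin1*, a calcineurin inhibitor, was at 18.0, 16.8 and 16.99 FPKM in WT and at 19.4, 19.8 and 19.5 FPKM in KO (log2 change 0.18, adjusted p = 0.185 by limma). *Akap5*, which anchors calcineurin and protein kinase A at the synapse, was at 11.5, 13.2 and 12.8 FPKM in WT and at 10.9, 10.1 and 10.6 FPKM in KO (log2 change -0.24, adjusted p = 0.185 by limma). *Fkbp1a*, the binding protein of the calcineurin inhibitor FK506, was the most abundant of the list and changed by -0.06 (adjusted p = 0.601). The NFAT factors, transcription factors that calcineurin sends to the nucleus, ranged from -0.07 for *Nfatc1* to 0.07 for *Nfat5*. None of the 4 tested had an unadjusted p below 0.05 by limma, against 14.8% of all tested loci.

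Calmodulin buffers bind calmodulin, some of them in its calcium-free form. *Pcp4* was at 158, 132 and 146 FPKM in WT and at 131, 109 and 114 FPKM in KO, with every KO library below every WT library, if narrowly (log2 change -0.30 ± 0.08 SE, adjusted p = 0.173 by limma). *Gap43*, a growth cone protein and the most abundant of this list, was at 253, 225 and 231 FPKM in WT and 273, 234 and 254 FPKM in KO (log2 change 0.10, adjusted p = 0.548 by limma). In the list of calmodulin-dependent enzymes, pumps and channels, *Nos1* had the lowest adjusted p of the pathway. This gene for neuronal nitric oxide synthase, which some inhibitory interneurons express, was at 9.21, 10.6 and 9.60 FPKM in WT and at 12.4, 13.6 and 14.2 FPKM in KO (log2 change 0.45 ± 0.08 SE, adjusted p = 0.0654 by limma). The inhibitory neuron markers *Dlx1*, *Dlx2* and *Lhx6*, named after their values were seen, had log2 changes of 0.38, 0.57 and 0.34. Their KO libraries all lay above the WT libraries, which held for 10.8% of all tested loci. *Gad1*, *Gad2* and *Slc32a1*, which define these neurons, stood at -0.07, 0.11 and -0.08 with overlapping libraries, and the summed markers at 163 to 167 FPKM in WT and 161 to 172 FPKM in KO. The part of these cells in the *Nos1* values was not tested.

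At the other end of the same list, *Kcnn1*, for a small-conductance potassium channel gated by calmodulin, was at 3.51, 3.56 and 3.15 FPKM in WT and at 2.58, 2.59 and 2.78 FPKM in KO (log2 change -0.35 ± 0.10 SE, adjusted p = 0.170 by limma). *Atp2b1*, a plasma membrane calcium pump and the most abundant of the list, was at 91.3, 99.0 and 93.9 FPKM in WT and at 102, 101 and 101 FPKM in KO (log2 change 0.10, adjusted p = 0.365 by limma). Its KO libraries all lay above the WT libraries.

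The transcription effectors of calmodulin and the CaM kinases all had positive values. The 11 of 12 genes tested had log2 changes from 0.04 to 0.23, with a median of 0.14 where all tested loci had 0.005, and 6 had all KO libraries above the WT libraries, against 10.8% of all tested loci. At an unadjusted p below 0.05, where 14.8% of all tested loci passed in either direction, 4 were higher, namely *Creb1*, *Crtc1*, *Crtc2* and *Mef2d*, and none passed the adjusted threshold by limma. *Crtc2*, a CREB coactivator that calcineurin releases to the nucleus, was at 6.52, 5.51 and 6.13 FPKM in WT and at 7.39, 7.04 and 6.84 FPKM in KO (log2 change 0.23, adjusted p = 0.252). *Hdac5*, a deacetylase that CaM kinases send out of the nucleus, was the most abundant, at 41.0, 40.0 and 41.0 FPKM in WT and 41.4, 43.3 and 44.7 FPKM in KO (log2 change 0.08, adjusted p = 0.464 by limma). Under scaling to the FPKM sum of all loci, which lowers all changes together, *Hdac5* stood at -0.11. *Camta2* was listed at 0 in all libraries. *Calm4* and *Calml3*, calmodulin-like genes, were listed at 0 as well, and *Calml4* was below the minimum at 0.111 to 0.616 FPKM, so none of that list was tested.

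**Figure D5:**
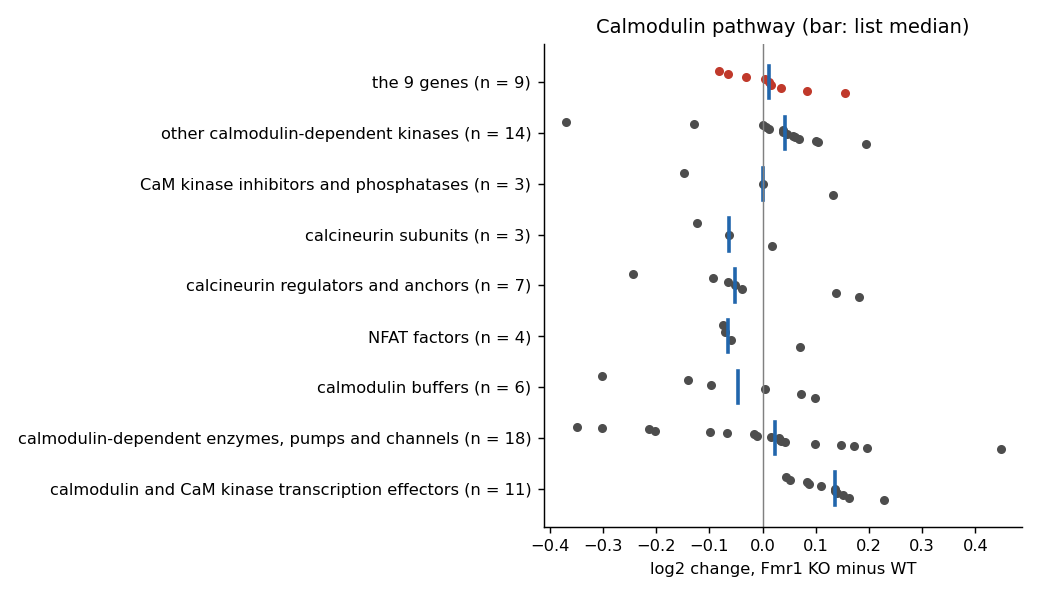
log2 change (KO minus WT) of each tested gene of the pathway lists, as grey points, and of the 9 genes, as red points, with a blue bar at each list's median and the number of tested genes beside its name. The 9 genes sit between -0.08 and 0.16, no gene passes at an adjusted p below 0.05, and the transcription effectors all lie above 0; under scaling to the FPKM sum of all loci the median of all tested loci is -0.18, and changes shift with it.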

How the data were processed

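Total RNA of 3 WT and 3 *Fmr1* KO hippocampal cultures was sequenced. The authors clipped and trimmed reads, used TopHat2 against GRCm38 and Cufflinks for gene models, and deposited FPKM per library from Cuffdiff. No source used here gives versions, annotation, strandedness or library scaling. Their group FPKM, fold change, p-value and q-value columns were not used. Deposited starts were converted to count from 1. FPKM are not counts, so limma 3.58.1 (R 4.3.3, mean-variance trend, genotype as the only term) was run on log2(FPKM + 0.1) over 13195 of 47086 loci with a mean of at least 1 FPKM in either genotype, two-sided, with Benjamini-Hochberg adjustment at 0.05. The fit was tested on simulated data. Within-library ratios were compared by exact permutation tests (SciPy 1.17.1). Without read depth, counting intervals could not be had; low values put the other libraries at 1.10 to 1.34 times the scale of WT replicate 1.

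The members and lists were chosen with earlier results of these data known. Named were the 9 genes, *Fmr1*, each pathway list's most abundant gene and its largest rise and fall, any list gene at an adjusted p below 0.05, and the 3 loci closest in profile to the member with the largest change and to the most abundant member, which were both *Camk2a*. Other genes of the effector, enzyme and channel, neuron, inhibitory neuron, microglia and fibroblast lists, and genes listed at 0, were named after their values were seen. The lists covered calmodulin-like genes, other kinases, inhibitors and phosphatases, calcineurin subunits, calcineurin regulators, NFAT factors, buffers, enzymes and channels, and transcription effectors, with 9 marker lists. Sequences came from GENCODE M21. Alternatives were pseudocounts of 1 and 0.01, no minimum or a minimum of 5 FPKM, 3 library scalings, no trend, the replicate number as a block, and each library left out in turn. The remaining list genes entered only the counts, except 1 gene of the calmodulin list that was left out of them and is not reported here.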

Additional observations from a re-analysis of the deposited data

How the results depend on the processing

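No setting gave any of the 9 genes an adjusted p below 0.05; the lowest was 0.150 (*Camk4*, libraries scaled to the FPKM sum of all loci). At an unadjusted p below 0.05 there were 0 genes of the 9 with no FPKM minimum, with libraries scaled to the FPKM sum without *Bc1* and without the trend, 2 under the sum of all loci, and 0 to 1 when each library was left out; *Camk2a* dropped out without WT replicate 1, WT replicate 3, KO replicate 2 or KO replicate 3. Loci called higher and lower were 12 and 23 as reported, 6 and 9 with no minimum, 20 and 34 at a minimum of 5 FPKM, 38 and 50 without *Bc1* in the sum, 7 and 114 under the sum of all loci, 7 and 14 without the trend, and 4 to 8 and 10 to 14 when each library was left out. The minimum of 5 tests fewer loci, and 1 pathway gene then passed, *Nos1* (0.45, adjusted p = 0.0439 by limma); otherwise the cause was not tested.

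Scaling to the FPKM sum of all loci moved the median of the 9 genes to -0.18 and of all loci to -0.18. Genes turned negative there: *Calm3* -0.18, *Camk2a* -0.034, *Camk2b* -0.15, *Camk2d* -0.17, *Camkk2* -0.11, *Ppp3ca* -0.19, *Camkv* -0.15, *Ppm1f* -0.056, *Ppp3cb* -0.17, *Cabin1* -0.0079, *Nfat5* -0.12, *Gap43* -0.090, *Atp2b1* -0.091 and *Hdac5* -0.11. Without *Bc1* in the sum, *Calm3* stood at -0.019, *Camk2d* at -0.016, *Ppp3ca* at -0.027 and *Ppp3cb* at -0.014. With each library left out, changes of both signs were met for *Calm3* (-0.012 to 0.059), *Camk2b* (-0.0016 to 0.058), *Camk2d* (-0.024 to 0.045), *Ppp3ca* (-0.062 to 0.089), *Camkv* (-0.0066 to 0.087), *Ppp3cb* (-0.039 to 0.080), *Nfat5* (-0.035 to 0.13) and *Nfatc1* (-0.16 to 0.023). The direction of these genes is therefore not settled. Apart from *Nos1* and *Pcp4*, the other changes of the 9 genes and of the pathway genes named by rule kept their direction and their side of the threshold. The alternatives were not run for *Fmr1*, single markers, other effectors, other enzymes and pumps, or the loci like *Camk2a* in profile.

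Same-numbered libraries correlated in their deviations at 0.24, 0.06 and 0.08 for replicates 1, 2 and 3, so the numbers were not taken as pairs. For replicates 1 and 3 the same-numbered libraries were each other's best partner across genotypes. Both libraries of replicate 2 correlated best with replicate 3 of the other genotype. With a replicate block, 29 loci were called higher and 36 lower, and of the pathway genes 1 was called higher, *Nos1* (adjusted p = 0.0441 by limma), and 1 lower, *Pcp4* (-0.30, adjusted p = 0.0397); it called none of the 9 genes.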
